A study of Homo sapiens with 39 samples.

Results

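C4-2B cells, a castration-resistant derivative of the LNCaP prostate cancer line, were exposed to 5 µM of the PARP inhibitor olaparib for 5 days, and their RNA was compared with that of cells kept in DMSO, the vehicle, for the same 5 days. The comparison takes 6 of the 39 libraries of the series, chosen by their labels, 3 of olaparib 5 µM day 5 and 3 of DMSO day 5, and covers 18502 of 63187 genes that passed a filter on low counts. The other libraries used for comparison were 3 of olaparib 1 µM at day 5, 3 each of olaparib 5 µM and DMSO at day 1, and 3 each of olaparib 1 µM and DMSO from a second experiment with its own 5-day cultures. The study asked how the dose of olaparib and the time of exposure change the expression of androgen-regulated genes. All cells grew in RPMI with fetal bovine serum and were treated the day after plating, and the model is a single cell line, so nothing here is replicated over patients or lines. Counts are whole numbers of reads assigned to each gene, levels are counts scaled to library size by the TMM method (CPM), and a gene was called when its edgeR quasi-likelihood p, adjusted by the Benjamini-Hochberg method over all 18502 genes, was under 0.05.

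Olaparib blocks PARP1 and PARP2, enzymes that mark broken DNA, and also holds them on the DNA, where they become obstacles for replication. Cells answer such damage through the kinases ATM and ATR and the transcription factor p53, whose targets stop the cell cycle, repair DNA or kill the cell. The best known of these targets, CDKN1A, encodes the CDK inhibitor p21, and blocking the CDKs leaves repressive RB and DREAM complexes on the promoters of cell cycle genes. DREAM recognizes the E2F motif, typical of genes used in S phase, and the CHR motif, typical of genes used in mitosis. Androgen-regulated genes such as KLK3, which encodes PSA, are used to follow androgen signalling in prostate cells.

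All 10 prostate luminal markers were well above background in the 6 libraries, with KLK3 between 46358 and 67602 counts and FOLH1 between 21142 and 32470. Markers of other cells were mostly at or near 0, with DCN and LUM (fibroblasts) and CD3E and MS4A1 (lymphocytes) at 0 counts in all 6 libraries, PTPRC at 0 to 3, PECAM1 at 0 to 3 and CHGA at 0 to 1. COL1A1 (449 to 546 counts) and PDGFRB (37 to 91) of the fibroblast list, VWF (266 to 470) of the endothelial list and SYP (41 to 87) of the neuroendocrine list were detected, and of these PDGFRB, VWF and SYP were lower at 5 µM. COL3A1 of the fibroblast list, at 5 to 13 counts, was called higher, and COL1A1 did not pass. The summed level of the 8 fibroblast markers was 13.7 to 14.2 CPM in DMSO and 14.2 to 14.9 CPM at 5 µM, with overlap, and in CPM of the total count alone it was 13.9 to 14.4 and 13.6 to 14.1, so the order of the groups turned with the scaling. The sums of 6 endothelial markers (10.4 to 10.7 and 7.74 to 9.02 CPM) and of 7 neuroendocrine markers (1.93 to 2.03 and 1.35 to 1.74 CPM) were lower at 5 µM without overlap. The immune list held CD68, a lysosomal glycoprotein used as a macrophage marker, at 204 to 1054 counts, and the summed level of the 8 immune markers was 6.31 to 6.81 CPM in DMSO and 29 to 31.5 CPM at 5 µM. Of the 8, only CD68, LYZ and ITGAM passed the filter on low counts, and all 3 were higher at 5 µM, with LYZ at 15 to 61 and ITGAM at 0 to 15 counts over the 6 libraries. The part of other cell types in the results was not tested. The 6 libraries held between 36588426 and 44893664 counts (median 37402610). The mitochondrially encoded share of counts was 8.24% to 8.38% in DMSO and 14.3% to 14.6% at 5 µM, and with these genes left out before scaling, an alternative chosen after seeing the data, 12620 genes were called in place of 12627. Replicates differed by more than sampling noise, with a chi-square of 2.37 to 2.84 per degree of freedom for pairs within the groups, so no library was a repeat of another. Among the libraries used for comparison, the third of olaparib 5 µM at day 1 stood apart from its replicates (5.88 and 6.01). Many counts of genes and list members that rest on it are given with and without it. The other such counts, among them those past 2-fold at day 1, and single-gene effects at day 1 include it. Nothing in the labels says that replicates came from separate cultures, so p-values measure only the spread between these libraries, and in bulk RNA fewer cells of a kind and less RNA per cell cannot be told apart.

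The change was broad. Of the 18502 genes, 6359 were higher and 6268 lower at 5 µM than in DMSO, so that 68.2% were called, 34.4% as higher and 33.9% as lower. The median log2 fold change over all genes tested was -0.01. Scaled to the total count alone, 5416 genes were higher and 7375 lower, with a median of -0.09. A 2-fold change was passed by 1629 genes that rose and 1409 that fell, and a 4-fold change by 492 and 374. In 12239 of the called genes (96.9%) the 3 libraries of one group all lay above the 3 of the other. Over all 18502 genes tested this held for 13150, so groups without overlap were the usual case. On the first principal component of the time course, which held 30.1% of the variance of 500 genes, the 5 µM day 5 libraries lay at 38.6 to 38.9, those of 1 µM at day 5 at 5.45 to 8.45 and those of DMSO day 5 at -18.3 to -15.1. The 3 groups did not overlap on it. Of 3554 long non-coding RNAs tested, 762 rose and 912 fell, against 5421 and 5112 of 13804 protein-coding genes. The counts of gene lists are to be read against these shares.

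**Figure D1:**
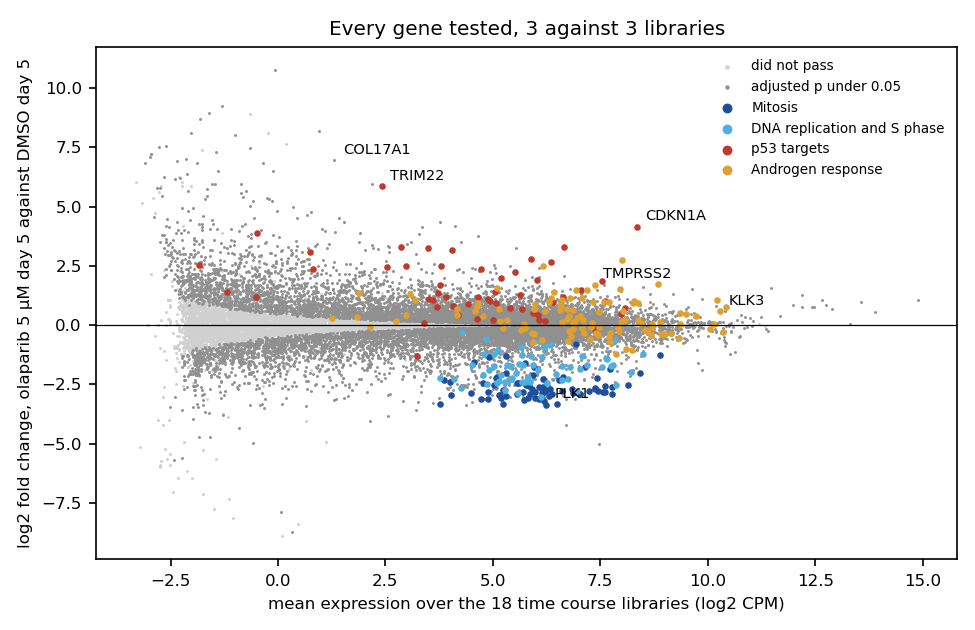
Log2 fold change of each of the 18502 genes tested (olaparib 5 µM day 5 against DMSO day 5, 3 libraries each) against its mean expression in log2 CPM over the 18 time course libraries. Dark grey points passed an adjusted p of 0.05; the mitosis (dark blue) and S phase (light blue) genes form one cloud below 0, p53 targets (red) lie mostly above 0, and androgen response genes (yellow) lie on both sides.

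The p53 targets mostly rose. Of 56 genes on the list, 54 were tested, 51 rose, PMAIP1 and PERP fell, and TP53I13 did not pass (PERP and TP53I13 named after their values were seen), with a median log2 fold change of 1.20. CDKN1A (chr6:36676460-36687337, plus strand in GRCh38), the gene of p21, had 40.4, 42 and 41 CPM in the DMSO libraries and 703, 748 and 741 CPM in the 5 µM libraries. The groups did not overlap, and the level rose 17.8-fold (log2 fold change 4.15 ± 0.026 SE, adjusted p = 1.04e-47).

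By role, all 10 targets tested that act in arrest rose, with a median of 2.18. BTG2, an antiproliferative regulator of mRNA decay, had 18.6, 19.3 and 18.8 CPM in the DMSO libraries and 129.5, 134 and 129.5 CPM in the 5 µM libraries, without overlap (log2 fold change 2.79 ± 0.038 SE, adjusted p = 1.66e-37). GADD45A, a stress sensor that acts on CDK1 and MAP kinases, rose 5.66-fold, with 4.41, 4.36 and 4.86 CPM in the DMSO libraries and 25.8, 26.2 and 25 CPM in the 5 µM libraries (log2 fold change 2.50 ± 0.060 SE, adjusted p = 1.06e-29). All 7 genes of feedback and p53 turnover rose (median 1.07), led by ZMAT3, an RNA-binding protein, at 29.5, 29.6 and 31.4 CPM in the DMSO libraries and 188, 196 and 184 CPM in the 5 µM libraries, and by TP53INP1, at 89.7, 92.3 and 90.3 CPM in the DMSO libraries and 333, 334 and 325 CPM in the 5 µM libraries. Their log2 fold changes were 2.65 and 1.86. All 5 genes of repair and nucleotide supply rose (median 1.20), among them the ribonucleotide reductase subunit RRM2B (1.20) and the ultraviolet damage sensor DDB2 (1.27).

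Of 14 cell death targets, 12 were tested, 10 rose and 2 fell, with a median of 1.10. FAS, the death receptor, had 1.9, 2.06 and 2.14 CPM in the DMSO libraries and 19.7, 20.0 and 18.8 CPM in the 5 µM libraries, a 9.62-fold rise without overlap (log2 fold change 3.27 ± 0.076 SE, adjusted p = 3.8e-30). BBC3, which encodes the BH3-only killer PUMA, had 1.78, 1.76 and 1.57 CPM in the DMSO libraries and 8.74, 9.18 and 10.1 CPM in the 5 µM libraries (log2 fold change 2.45 ± 0.10 SE, adjusted p = 2.07e-22). PMAIP1, which encodes the related protein NOXA, went the other way, with 9.89, 12.4 and 9.73 CPM in the DMSO libraries and 4.17, 4.83 and 4.02 CPM in the 5 µM libraries, and fell 2.45-fold (log2 fold change -1.29 ± 0.098 SE, adjusted p = 6.86e-13). In the whole BCL2 family 7 of 14 genes tested rose and 3 fell, including the survival gene BCL2, which had 4.61, 4.2 and 4.17 CPM in the DMSO libraries and 0.868, 0.954 and 0.844 CPM in the 5 µM libraries and fell 4.86-fold (log2 fold change -2.28 ± 0.14 SE, adjusted p = 1.7e-17). The survival gene BCL2L1 was among those that rose (0.79).

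Secreted and metabolic p53 targets gave the widest range, with 19 of 20 higher (median 1.37). TRIM22, an antiviral ubiquitin ligase that is both an interferon and a p53 target, had 0.463, 0.325 and 0.335 CPM in the DMSO libraries and 21.9, 23.3 and 22.4 CPM in the 5 µM libraries. That is a 59-fold rise (log2 fold change 5.88 ± 0.13 SE, adjusted p = 8.73e-31). GDF15, a stress cytokine of the TGF-beta family, had 16.1, 17.3 and 18 CPM in the DMSO libraries and 162, 169.7 and 173 CPM in the 5 µM libraries, and LIF, an interleukin 6 family cytokine, had 1.54, 1.25 and 1.42 CPM in the DMSO libraries and 13.7, 15.5 and 13.1 CPM in the 5 µM libraries. Neither gene's groups overlapped, and the log2 fold changes were 3.30 and 3.32. PINCR, a long non-coding RNA known to be induced by p53 and not on the list, had 2, 3 and 4 counts in the DMSO libraries and 121, 95 and 100 counts in the 5 µM libraries (log2 fold change 5.25 ± 0.28 SE, adjusted p = 1.18e-18).

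Most other CDK inhibitors did not rise with CDKN1A. Of 13 CDK inhibitors, D cyclins and partner kinases tested, 4 rose and 8 fell, and of the 7 inhibitors 2 rose and 4 fell. CDKN2C, the INK4 inhibitor p18, had 28.4, 27.5 and 25.7 CPM in the DMSO libraries and 4.54, 4.43 and 4.75 CPM in the 5 µM libraries (log2 fold change -2.57 ± 0.063 SE, adjusted p = 1.75e-29), and CDKN2A had 12.1, 11.8 and 12 CPM in the DMSO libraries and 3.5, 3.12 and 3.49 CPM in the 5 µM libraries (log2 fold change -1.83 ± 0.083 SE, adjusted p = 5.06e-21). CDK2, the kinase that p21 inhibits in S phase, had 98.3, 104 and 99.9 CPM in the DMSO libraries and 36.2, 37.7 and 38.9 CPM in the 5 µM libraries and fell 2.68-fold (log2 fold change -1.42 ± 0.032 SE, adjusted p = 7.43e-31).

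Every mitosis gene fell. All 75 genes of the list were tested and all 75 were lower at 5 µM, with a median log2 fold change of -2.73 and a range from -3.35 to -0.33. PLK1 (chr16:23677656-23690367, plus strand), the kinase that drives entry into mitosis, had 104, 108 and 102 CPM in the DMSO libraries and 10.4, 9.96 and 10.3 CPM in the 5 µM libraries. The groups lay far apart, and the level fell 10.2-fold (log2 fold change -3.35 ± 0.037 SE, adjusted p = 8.98e-40). CCNA2 (cyclin A2) had 78, 80.8 and 73.7 CPM in the DMSO libraries and 9.04, 9.43 and 9.26 CPM in the 5 µM libraries and fell by 3.07 on the log2 scale, and NEK2, a centrosome kinase gene, fell by 2.99. The 16 cyclins and kinases had a median of -2.64.

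At the kinetochore, where chromosomes meet spindle fibres, the 19 genes had a median of -2.85. CENPA (chr2:26764289-26801067, plus strand), the histone H3 variant that marks centromeres, had 17.9, 19.4 and 18.6 CPM in the DMSO libraries and 2.04, 1.54 and 1.94 CPM in the 5 µM libraries (log2 fold change -3.33 ± 0.079 SE, adjusted p = 6.21e-30). KNL1 and SKA1, which hold the fibres, fell 8.67-fold and 8.7-fold. Among 22 spindle motors and cytokinesis genes (median -2.76), KIF14 (chr1:200551497-200620751, minus strand), a kinesin of cytokinesis, had 50.7, 50.8 and 45.1 CPM in the DMSO libraries and 5.04, 5.02 and 4.42 CPM in the 5 µM libraries (log2 fold change -3.34 ± 0.059 SE, adjusted p = 1.15e-33). KIF20A had 99.6, 101 and 95.8 CPM in the DMSO libraries and 10.8, 9.74 and 11.6 CPM in the 5 µM libraries, and ASPM, a spindle pole protein, 75.4, 75.5 and 68.3 CPM in the DMSO libraries and 7.7, 8.45 and 8.04 CPM in the 5 µM libraries. No library of one group reached the other group's range for any of these. Among 18 genes of chromosome condensation and exit (median -2.68), CDC20, the activator of the anaphase-promoting complex, had 122, 124 and 122 CPM in the DMSO libraries and 11.8, 12 and 13.3 CPM in the 5 µM libraries (log2 fold change -3.31 ± 0.036 SE, adjusted p = 5.02e-40), PTTG1 (securin) fell 8.49-fold and the condensin subunit NCAPG 8.37-fold.

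The S phase genes fell as a block too, by less. All 59 were lower at 5 µM, with a median log2 fold change of -1.77 and a range from -3.04 to -0.30. Origin licensing and helicase genes fell most steeply after the regulators of the G1 to S transition, with a median of -2.04 over 18 genes against -2.29 over 14. MCM10 (chr10:13161558-13211110, plus strand), which starts the replicative helicase, had 84.1, 84.7 and 83.4 CPM in the DMSO libraries and 9.66, 10.6 and 10.4 CPM in the 5 µM libraries. CDC45 (chr22:19479457-19520612, plus strand), a part of that helicase, had 58.6, 56.6 and 58.5 CPM in the DMSO libraries and 7.76, 7.33 and 8.47 CPM in the 5 µM libraries. Both pairs of groups were separate (log2 fold change -3.04 ± 0.040 SE, adjusted p = 6.65e-38 for MCM10, and log2 fold change -2.88 ± 0.046 SE, adjusted p = 1.91e-35 for CDC45). E2F8, a repressor that is itself an E2F target, fell 6.33-fold, the chromatin regulator UHRF1 5.27-fold and the checkpoint mediator CLSPN 5.51-fold.

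Nucleotide supply fell in all 7 of its genes (median -1.67). TK1, thymidine kinase, had 146, 143 and 146 CPM in the DMSO libraries and 21.6, 19.4 and 22.9 CPM in the 5 µM libraries (log2 fold change -2.77 ± 0.038 SE, adjusted p = 5.81e-37), and RRM2, the cell cycle regulated subunit of ribonucleotide reductase, had 264, 265 and 262 CPM in the DMSO libraries and 44.8, 43.5 and 48.1 CPM in the 5 µM libraries (log2 fold change -2.54 ± 0.028 SE, adjusted p = 1.02e-39). RRM2B, the p53-regulated form of the same subunit, is among the rises above. All 20 polymerase and clamp genes were lower (median -1.54), led by the primase gene PRIM1, which had 46.9, 47.6 and 45.9 CPM in the DMSO libraries and 6.61, 7.33 and 7.29 CPM in the 5 µM libraries (log2 fold change -2.73 ± 0.050 SE, adjusted p = 2.18e-33).

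**Figure D2:**
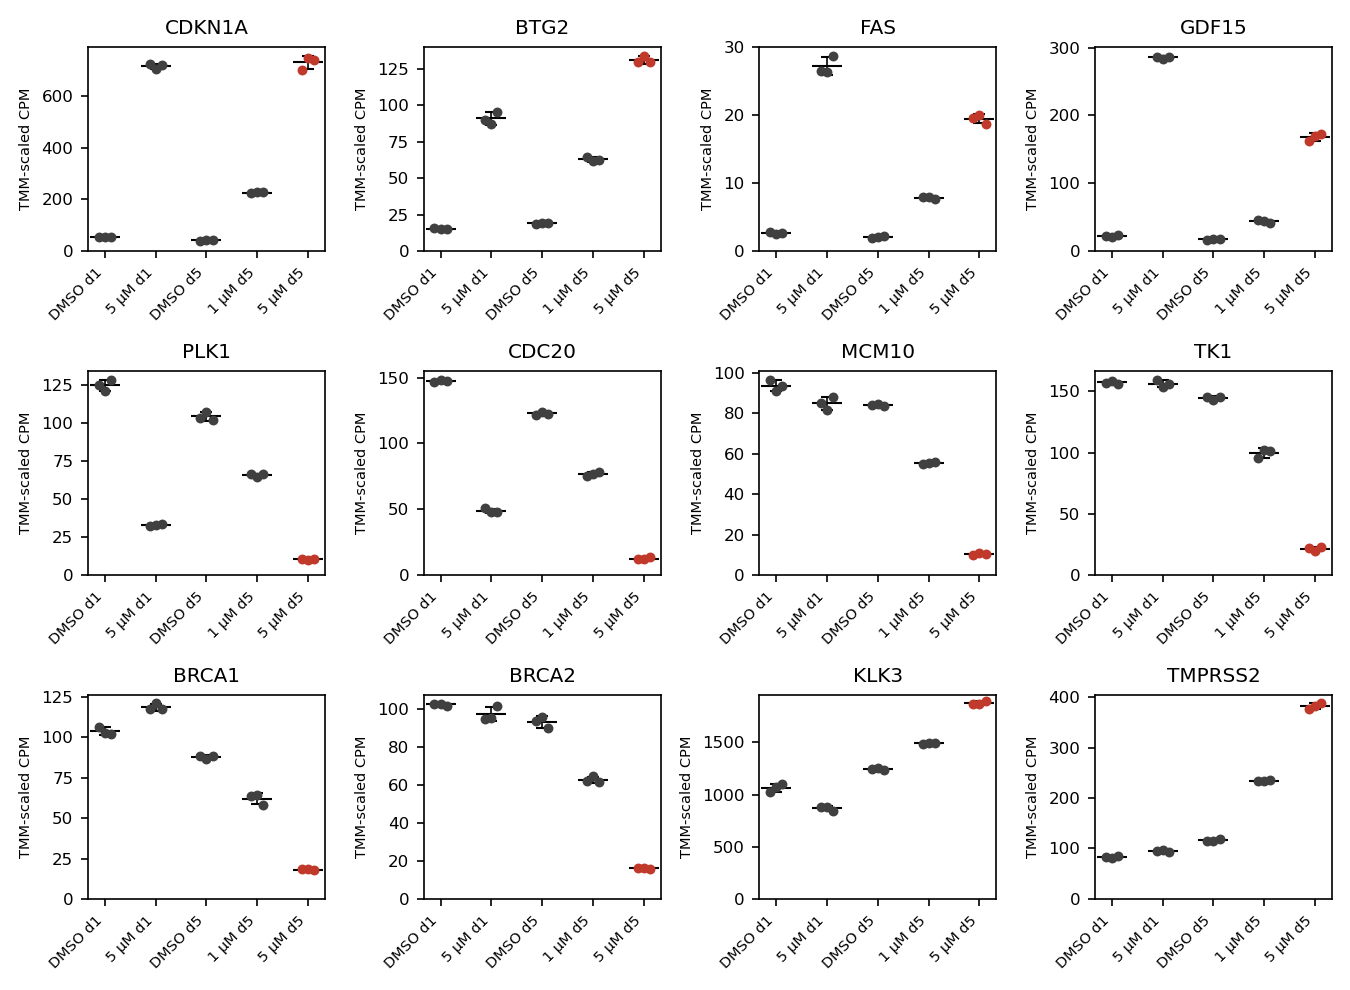
TMM-scaled CPM of 12 genes in each of 15 time course libraries (points), with the mean and SD of the 3 libraries of a group (bars); each panel starts at 0, and olaparib 5 µM day 5 is red. CDKN1A is high at 5 µM on both days, PLK1 and CDC20 fall at day 1 and further at day 5, MCM10, TK1, BRCA1 and BRCA2 are near their controls at day 1 and low at day 5, and KLK3 lies below DMSO at day 1 and above it at day 5.

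The promoters of the mitosis and S phase genes are shown because both gene groups moved as blocks and hold different known motifs. The windows run from 250 bases before to 50 bases after the RefSeq start site (GRCh38.p14), one per gene, and 12121 of the genes tested had one. The motifs searched on both strands were CHR (TTTGAA), the CCAAT box (CCAAT) and E2F (any of TTTGGCGC, TTTCGCGC, TTTCCCGC and TTTGGCGG). Each motif was counted by itself, so bases can belong to more than one. Below are the windows of the 3 mitosis genes with the largest fall that hold a CHR, 2 S phase genes with an E2F match (added after the shares were seen) and CDKN1A, in lower case with the matches of these motifs in capitals.
PLK1 (chr16:23678639-23678938, plus strand): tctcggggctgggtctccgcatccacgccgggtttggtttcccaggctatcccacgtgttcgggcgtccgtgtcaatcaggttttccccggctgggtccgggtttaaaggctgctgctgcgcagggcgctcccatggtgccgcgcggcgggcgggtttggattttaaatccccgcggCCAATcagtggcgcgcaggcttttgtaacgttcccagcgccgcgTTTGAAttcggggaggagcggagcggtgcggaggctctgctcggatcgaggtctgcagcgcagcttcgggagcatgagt
KIF14 (chr1:200620702-200621001, minus strand): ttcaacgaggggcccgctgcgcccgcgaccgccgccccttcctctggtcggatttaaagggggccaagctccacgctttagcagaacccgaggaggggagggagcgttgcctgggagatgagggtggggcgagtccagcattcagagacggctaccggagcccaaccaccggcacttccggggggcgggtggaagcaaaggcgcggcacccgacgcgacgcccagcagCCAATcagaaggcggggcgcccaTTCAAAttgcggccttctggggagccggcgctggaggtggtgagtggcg
CENPA (chr2:26785806-26786105, plus strand): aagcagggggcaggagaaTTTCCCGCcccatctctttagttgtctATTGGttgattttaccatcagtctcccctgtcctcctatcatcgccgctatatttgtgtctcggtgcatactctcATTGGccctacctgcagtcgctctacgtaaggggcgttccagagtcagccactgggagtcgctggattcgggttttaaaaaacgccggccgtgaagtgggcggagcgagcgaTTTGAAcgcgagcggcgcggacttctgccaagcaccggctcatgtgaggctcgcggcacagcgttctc
MCM10 (chr10:13161308-13161607, plus strand): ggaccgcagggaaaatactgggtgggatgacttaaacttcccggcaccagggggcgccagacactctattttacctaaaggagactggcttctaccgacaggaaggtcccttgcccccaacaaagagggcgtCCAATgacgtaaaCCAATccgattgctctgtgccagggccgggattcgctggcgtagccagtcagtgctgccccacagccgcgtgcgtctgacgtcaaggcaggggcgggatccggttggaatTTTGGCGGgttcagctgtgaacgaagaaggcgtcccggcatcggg
CDC45 (chr22:19479670-19479969, plus strand): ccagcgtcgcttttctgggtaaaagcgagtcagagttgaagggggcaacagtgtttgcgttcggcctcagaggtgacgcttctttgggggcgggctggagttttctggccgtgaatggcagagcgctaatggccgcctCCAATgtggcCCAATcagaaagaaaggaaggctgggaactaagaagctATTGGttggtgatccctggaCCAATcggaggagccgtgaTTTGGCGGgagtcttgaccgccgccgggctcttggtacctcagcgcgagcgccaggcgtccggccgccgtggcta
CDKN1A (chr6:36678464-36678763, plus strand): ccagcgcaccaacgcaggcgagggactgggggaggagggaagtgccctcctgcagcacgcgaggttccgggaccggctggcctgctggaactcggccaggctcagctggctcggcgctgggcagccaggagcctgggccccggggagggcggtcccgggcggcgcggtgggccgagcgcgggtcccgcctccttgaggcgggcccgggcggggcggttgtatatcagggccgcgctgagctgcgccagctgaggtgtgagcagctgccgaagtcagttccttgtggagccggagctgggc

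Counted from the start site, the CHR began at position -29 in PLK1 and -18 in CENPA and at 2 in KIF14, where it reads on the opposite strand. A CCAAT box, or its reverse ATTGG, lay upstream of it in all 3, at -73 in PLK1, -22 in KIF14 and -130 and -205 in CENPA. The E2F match began at 6 in MCM10 and -25 in CDC45, each behind CCAAT boxes, of which CDC45 had 4. The CENPA window also held an E2F match, at -232. The CDKN1A window held none of these motifs, nor a match to the p53 half-site. Bases outside the windows were not searched, so this does not show that the gene lacks a p53 site. The letters in a window say nothing about whether a factor was bound in these cells.

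Over the lists, the CHR was found in 42 of 63 mitosis promoters (66.7%) and in 1 of 50 S phase promoters (2%), against 9.74% of all genes tested and 15.4% of all 27305 promoters. The E2F motif was distributed the other way, in 31 of 50 S phase promoters (62%) and in 8 of 63 mitosis promoters (12.7%), against 5.5% of genes tested and 3.43% of all promoters. CCAAT boxes were in 68.3% of mitosis and 54% of S phase promoters, against 36.9% of genes tested and 35.7% of all promoters. Over the whole table the share with a CHR grew with the size of the fall, from 9.17% of genes that did not pass to 12.1% of those that fell, 20.7% of those that fell 2-fold and 33.9% of those that fell 4-fold, and it was 7.84% of those that rose and 11.5% of those that rose 2-fold. The mitosis list is part of these counts. The p53 half-site was in 4 of 44 p53 target promoters (9.09%), against 5.35% of genes tested and 6.54% of all promoters.

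Genes of homologous recombination and the Fanconi anemia pathway, which repair the breaks and crosslinks that stall replication, mostly fell. Of 45 tested, 37 were lower, 7 did not pass and SLX4 (named after its value was seen) was higher, with a median of -1.38. BRCA1 (chr17:43044295-43170245, minus strand) had 88.5, 86.6 and 88.6 CPM in the DMSO libraries and 18.4, 18.4 and 17.8 CPM in the 5 µM libraries. BRCA2 (chr13:32315086-32400268, plus strand) had 94.1, 96.1 and 90.1 CPM in the DMSO libraries and 16.2, 16.2 and 15.9 CPM in the 5 µM libraries. Both had groups far apart and fell 4.83-fold (log2 fold change -2.27 ± 0.037 SE, adjusted p = 3.78e-35) and 5.81-fold (log2 fold change -2.54 ± 0.039 SE, adjusted p = 5.47e-36).

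EXO1, which resects broken ends, and BLM, the helicase that dissolves recombination intermediates, fell 6.31-fold and 6.06-fold. Of 12 Fanconi anemia genes 11 fell, with FANCD2 at 66.5, 66 and 63.3 CPM in the DMSO libraries and 13, 12.5 and 14.5 CPM in the 5 µM libraries and FANCI at 176, 182 and 175 CPM in the DMSO libraries and 38.5, 36.9 and 40.4 CPM in the 5 µM libraries. PALB2, the partner that joins BRCA1 to BRCA2, fell less, 1.52-fold (log2 fold change -0.61 ± 0.052 SE, adjusted p = 8.32e-13). ATM, the kinase that senses breaks, had 47.7, 44.6 and 44.3 CPM in the DMSO libraries and 48.2, 46.8 and 44.2 CPM in the 5 µM libraries, and its overlapping groups did not differ by this test (log2 fold change 0.02 ± 0.038 SE, adjusted p = 0.587). The checkpoint kinase genes CHEK1 and CHEK2 fell 4.94-fold and 2.6-fold.

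The drug's own targets moved less. PARP1 had 621, 615 and 619 CPM in the DMSO libraries and 405, 414 and 404 CPM in the 5 µM libraries, and PARP2 had 38.8, 38.8 and 40.5 CPM in the DMSO libraries and 18.6, 18.1 and 18.4 CPM in the 5 µM libraries. Neither pair of groups overlapped, and the falls were 1.52-fold (log2 fold change -0.60 ± 0.017 SE, adjusted p = 4.29e-27) and 2.14-fold (log2 fold change -1.10 ± 0.041 SE, adjusted p = 1.44e-23). PARP3, the third DNA-dependent member, rose 1.23-fold (log2 fold change 0.30 ± 0.070 SE, adjusted p = 0.000222). Over 18 PARP family genes, hydrolases and readers tested, 6 rose, 6 fell and 6 did not pass, with PARP4, found in vault particles, at 1.00 and PARP8 at -1.44 as the largest called changes on each side.

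The androgen response, the subject of the study, was split and leaned upward. Its 105 symbols gave 106 tested gene IDs, because HERC3 is annotated under 2, and 64 rose, 36 fell and 6 did not pass, with a median log2 fold change of 0.22. Among 9 kallikreins and secreted products 7 rose and none fell (median 0.70). KLK3 (chr19:50854915-50860764, plus strand), the gene of PSA, had 1248, 1255 and 1232 CPM in the DMSO libraries and 1866, 1871 and 1902 CPM in the 5 µM libraries. Its groups did not overlap, and it rose 1.51-fold (log2 fold change 0.59 ± 0.021 SE, adjusted p = 1e-17). KLK2, its neighbour and a related protease, had 83.4, 87.8 and 86.3 CPM in the DMSO libraries and 178, 175 and 178 CPM in the 5 µM libraries and rose 2.06-fold (log2 fold change 1.05 ± 0.028 SE, adjusted p = 1.89e-28). TMPRSS2, the protease gene whose promoter drives ERG in many tumours, had 116, 116 and 119 CPM in the DMSO libraries and 377, 383 and 389 CPM in the 5 µM libraries and rose 3.28-fold (log2 fold change 1.71 ± 0.026 SE, adjusted p = 7.73e-36).

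Several other androgen-related genes changed by less. FKBP5, an androgen-induced cochaperone, had 705, 684 and 686 CPM in the DMSO libraries and 937, 963 and 963 CPM in the 5 µM libraries, without overlap (log2 fold change 0.46 ± 0.018 SE, adjusted p = 2.11e-23). GATA2, a lineage transcription factor, rose 1.18-fold (log2 fold change 0.24 ± 0.028 SE, adjusted p = 9.64e-10). The pioneer factor FOXA1 fell 1.15-fold (log2 fold change -0.20 ± 0.021 SE, adjusted p = 7.57e-11) and HOXB13 fell 1.42-fold (log2 fold change -0.51 ± 0.023 SE, adjusted p = 2.98e-21), both without overlap.

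The largest changes among the other androgen targets were NDRG1, a stress and differentiation gene also induced by hypoxia, and MAF, a leucine zipper factor. NDRG1 had 111, 104 and 106 CPM in the DMSO libraries and 682, 728 and 737 CPM in the 5 µM libraries (log2 fold change 2.74 ± 0.036 SE, adjusted p = 2.54e-24). MAF had 31, 29.5 and 31.9 CPM in the DMSO libraries and 169, 183 and 177 CPM in the 5 µM libraries (log2 fold change 2.52 ± 0.036 SE, adjusted p = 1.95e-35). ADAMTS1, a secreted protease, rose 3.3-fold (log2 fold change 1.72 ± 0.032 SE, adjusted p = 5.73e-20). SLC45A3, a prostate membrane transporter and luminal marker, fell, with 246, 251 and 250.4 CPM in the DMSO libraries and 148, 152 and 160.2 CPM in the 5 µM libraries (log2 fold change -0.70 ± 0.025 SE, adjusted p = 5.6e-24). The whole list's share of rises, 64 of 106, stood against 34.4% of all genes tested, and its share of falls, 36 of 106, against 33.9%.

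Metabolic and stress pathways moved as follows. Genes induced by ATF4, the transcription factor of amino acid shortage, fell in 20 of 24 cases and rose in 4, with a median of -1.01, or -0.85 with the 1 member at or under 3 counts in every 5 µM library set at that limit. ASNS, asparagine synthetase, had 313, 322 and 315 CPM in the DMSO libraries and 80.0, 85.5 and 83.3 CPM in the 5 µM libraries, without overlap (log2 fold change -1.93 ± 0.024 SE, adjusted p = 3.02e-38). CHAC1, which degrades glutathione, had 8.84, 9.75 and 9.16 CPM in the DMSO libraries and 1.12, 1.46 and 1.1 CPM in the 5 µM libraries (log2 fold change -2.91 ± 0.11 SE, adjusted p = 1.88e-23). The 4 that rose, named after their values were seen, were CBS, ATF3, VLDLR and SESN2, of which p53 also induces SESN2. Of 30 MYC and ribosome biogenesis genes 27 fell and 2 rose, by small amounts (median -0.25), with UTP20 falling 2.05-fold and the polyamine enzyme gene ODC1 1.69-fold.

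Lysosome and autophagy genes rose in 27 of 32 cases and fell in 3 (median 0.54). PSAP, which encodes the saposin activators of lipid breakdown, had 422, 424 and 423 CPM in the DMSO libraries and 1056, 1063 and 1062 CPM in the 5 µM libraries, without overlap (log2 fold change 1.33 ± 0.018 SE, adjusted p = 1.75e-37). NPC1, the cholesterol exporter of lysosomes, rose 2.66-fold (log2 fold change 1.41 ± 0.026 SE, adjusted p = 2.44e-33), and GABARAPL1, an autophagosome protein, rose 3.06-fold (log2 fold change 1.61 ± 0.042 SE, adjusted p = 1.35e-28). CD68, also a lysosomal protein, had 6.35, 5.52 and 5.82 CPM in the DMSO libraries and 26.9, 29.6 and 28.7 CPM in the 5 µM libraries (log2 fold change 2.26 ± 0.082 SE, adjusted p = 1.06e-20). LYZ and ITGAM, myeloid markers at low counts, were higher as well, while PTPRC, the pan-leukocyte marker, was at 0 to 3 counts.

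Of 13 mitochondrially encoded genes of oxidative phosphorylation 12 rose and none fell (median 0.81), with MT-ND5 at 2982, 3069 and 3037 CPM in the DMSO libraries and 7352, 7407 and 7338 CPM in the 5 µM libraries (log2 fold change 1.28 ± 0.024 SE, adjusted p = 3.7e-16). The 32 nuclear genes of the same complexes did not share this, with 11 higher, 16 lower and a median of -0.02. Of 31 cholesterol and fatty acid synthesis genes 22 fell and 8 rose (median -0.30). Of 22 genes of steroid and drug metabolism 18 rose and 4 fell (median 0.89), among them CYP3A5, a drug-oxidizing enzyme that also handles testosterone, with 0.375, 0.65 and 0.232 CPM in the DMSO libraries and 7.11, 6.62 and 6.84 CPM in the 5 µM libraries (log2 fold change 4.04 ± 0.20 SE, adjusted p = 1.03e-19).

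Immune and secretory genes rose in part. MHC class I and peptide loading genes rose in 11 of 15 cases and fell in 2 (median 0.52). B2M, the light chain of MHC class I, had 166, 176 and 169 CPM in the DMSO libraries and 324, 332 and 336 CPM in the 5 µM libraries, HLA-B, a heavy chain, had 12.3, 13.4 and 12 CPM in the DMSO libraries and 24.1, 25.1 and 23.5 CPM in the 5 µM libraries, and TAP1, the peptide transporter, had 8.33, 8.34 and 8.13 CPM in the DMSO libraries and 19.9, 19.6 and 19.4 CPM in the 5 µM libraries. None of these groups overlapped, and the log2 fold changes were 0.96, 0.95 and 1.25. Of 42 interferon-stimulated genes tested 26 rose and 9 fell (median 0.33), and the direction differed within a family, since OAS1, a sensor of double-stranded RNA, rose 10.1-fold (log2 fold change 3.34 ± 0.21 SE, adjusted p = 6.95e-17) while its neighbour OAS3 fell 3.09-fold (log2 fold change -1.63 ± 0.062 SE, adjusted p = 2.56e-23). None of the 4 interferon-induced chemokines on the list had enough counts to be tested. The interferon response motif (ISRE, read as GAAA, any 2 bases and GAAA on either strand) was in 20 of 30 promoters of the list (66.7%), against 2.75% of genes tested and 3.65% of all promoters.

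Of 50 senescence secretome and NF-kB genes only 23 were tested, and 16 rose and 2 fell (median 1.00). IL6, CXCL8 and IL1B, the classic secreted factors of senescent cells, were among the 27 that did not pass the filter on low counts. IGFBP3, which binds insulin-like growth factors and is also a p53 target, had 18.4, 19.8 and 18.1 CPM in the DMSO libraries and 107, 109 and 107 CPM in the 5 µM libraries (log2 fold change 2.52 ± 0.043 SE, adjusted p = 2.96e-34). RELB, a subunit of non-canonical NF-kB, had 0.397, 0.677 and 0.566 CPM in the DMSO libraries and 5.07, 4.21 and 4.5 CPM in the 5 µM libraries (log2 fold change 3.08 ± 0.19 SE, adjusted p = 6.92e-17), and TGFB2 had 0.595, 0.623 and 0.695 CPM in the DMSO libraries and 3.53, 3.96 and 3.85 CPM in the 5 µM libraries (log2 fold change 2.56 ± 0.21 SE, adjusted p = 1.48e-13). Matrix and adhesion genes rose in 23 of 36 cases and fell in 5 (median 0.60), with LAMB3, a basement membrane laminin chain, rising 9.53-fold (log2 fold change 3.25 ± 0.19 SE, adjusted p = 7.89e-18) and the integrin gene ITGA6 falling 1.71-fold (log2 fold change -0.77 ± 0.034 SE, adjusted p = 2.06e-21). SOX9, a progenitor transcription factor, rose, with 4.14, 3.93 and 3.27 CPM in the DMSO libraries and 28.5, 32.3 and 29.4 CPM in the 5 µM libraries (log2 fold change 2.99 ± 0.075 SE, adjusted p = 4.28e-29), while EZH2, the PRC2 methyltransferase, fell, with 116, 114 and 111 CPM in the DMSO libraries and 33.5, 33.3 and 34.7 CPM in the 5 µM libraries (log2 fold change -1.75 ± 0.029 SE, adjusted p = 7.21e-35).

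The remaining lists gave these counts. Fatty acid oxidation genes rose in 20 of 32 cases and fell in 5 (median 0.20), hypoxia genes in 10 and 1 of 13 (0.56), glycolysis genes in 10 and 7 of 21 (-0.01), and epithelial and mesenchymal genes in 15 and 7 of 26 (0.19). ER chaperones rose in 8 and fell in 12 of 22 cases (-0.08), NRF2 and glutathione genes in 8 and 10 of 19 (-0.13), replication-dependent histones in 14 and 14 of 34 (0.03) and Wnt, Notch and Hedgehog genes in 13 and 10 of 32 (0.02). The sign of the median changed with the setting for the NRF2, histone, Wnt, PARP and whole oxidative phosphorylation lists. Of 22 neuroendocrine and plasticity genes 7 were tested, with 4 higher and 3 lower. NOTCH1, a receptor of cell fate signalling, had 34.4, 32.6 and 33.6 CPM in the DMSO libraries and 95.7, 94.4 and 92.9 CPM in the 5 µM libraries (log2 fold change 1.49 ± 0.034 SE, adjusted p = 1.15e-30), and GLI3, a Hedgehog effector, had 30.3, 30.9 and 29.2 CPM in the DMSO libraries and 6.69, 6.03 and 5.77 CPM in the 5 µM libraries (log2 fold change -2.29 ± 0.054 SE, adjusted p = 6.77e-30).

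**Figure D3:**
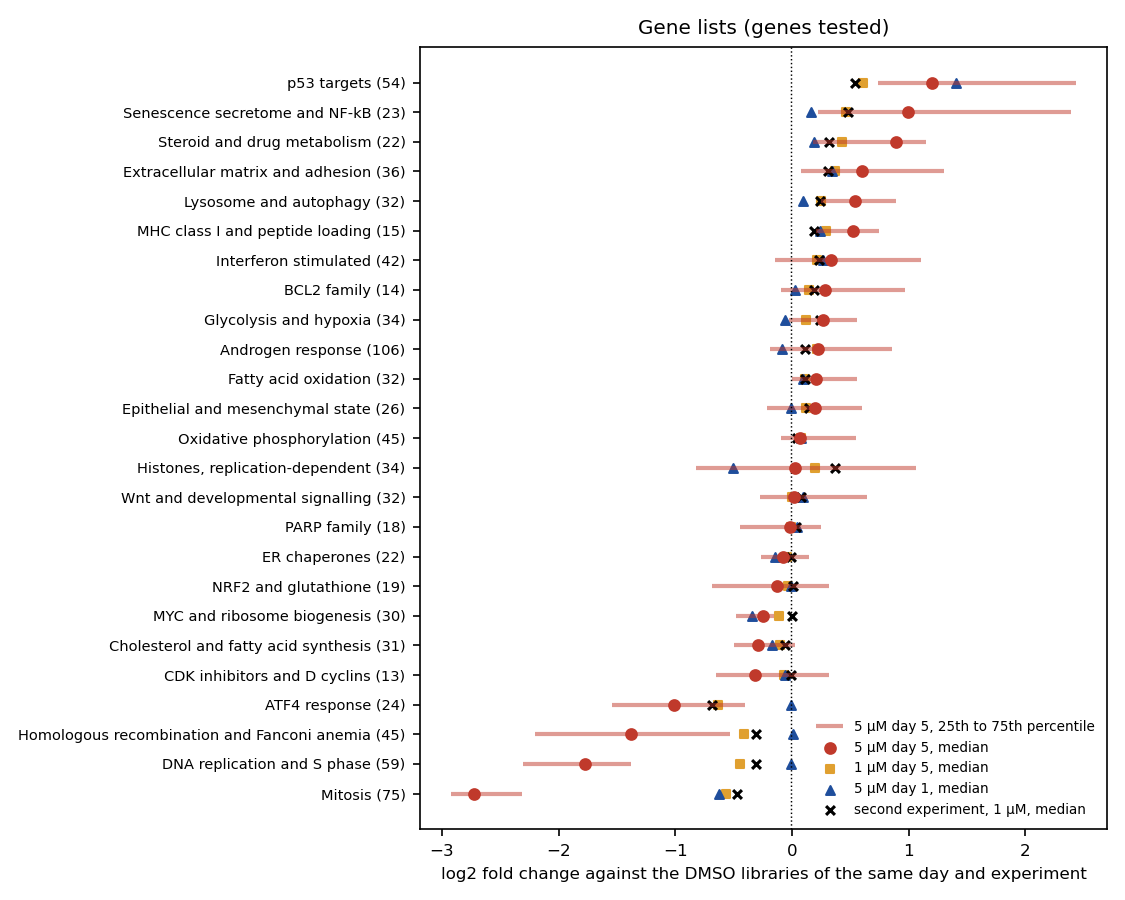
Median log2 fold change of 25 gene lists (genes tested in parentheses) for olaparib 5 µM at day 5 (red circles, with a bar from the 25th to the 75th percentile of the members), 1 µM at day 5 (squares), 5 µM at day 1 (triangles) and 1 µM in the second experiment (crosses), each against DMSO of its own day and experiment; the dotted line is the median of all genes tested at 5 µM day 5. Mitosis, S phase and recombination genes reach -2.73, -1.77 and -1.38 in the red series and lie at -0.62, -0.01 and 0.01 at day 1.

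The 15 largest rises among genes with a mean of at least 100 counts were of several kinds. COL17A1, a hemidesmosome collagen, had 6, 3 and 3 counts in the DMSO libraries and 462, 431 and 472 counts in the 5 µM libraries (log2 fold change 6.97 ± 0.21 SE, adjusted p = 3.06e-26). SULF2, an enzyme that edits heparan sulfate outside the cell, had 10, 7 and 10 counts in the DMSO libraries and 492, 521 and 501 counts in the 5 µM libraries (log2 fold change 5.97 ± 0.16 SE, adjusted p = 5.44e-28). ACTA2, smooth muscle actin, and CEACAM1, a cell adhesion molecule, rose 27.4-fold and 24.8-fold. SSTR5-AS1, an antisense transcript, rose 23.1-fold, and whether counting used strand is not given in the sources used here. The groups of these 5 genes did not overlap. APOBEC3H, a cytidine deaminase that restricts viruses, had 12, 9 and 5 counts in the DMSO libraries and 183, 176 and 177 counts in the 5 µM libraries (log2 fold change 4.53 ± 0.19 SE, adjusted p = 8.64e-22). Looking at the family after that value was seen, APOBEC3C rose 20.2-fold (log2 fold change 4.34 ± 0.17 SE, adjusted p = 1.14e-22), APOBEC3B fell 2.49-fold (log2 fold change -1.31 ± 0.053 SE, adjusted p = 1.77e-22), and APOBEC3F had 6, 7 and 14 counts in the DMSO libraries and 15, 8 and 19 counts in the 5 µM libraries, which did not pass (adjusted p = 0.098).

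The other large rises were mostly of one kind, genes known from cleavage-stage embryos as targets of the transcription factor DUX4. TRIM43, TRIM43B, TRIM49, TRIM49B, TRIM49C, PRAMEF12 and PRAMEF36P are 7 of the 15. TRIM43 had 2, 1 and 1 counts in the DMSO libraries and 160, 147 and 135 counts in the 5 µM libraries, a ratio of 125 (95% counting interval 48.6 to 462). PRAMEF12 had 1, 3 and 2 counts in the DMSO libraries and 179, 163 and 176 counts in the 5 µM libraries, a ratio of 97.9 (44.7 to 268). TRIM49B had 2, 0 and 0 counts in the DMSO libraries and 132, 139 and 102 counts in the 5 µM libraries, a ratio of 211 (58.1 to 1750). No 5 µM library came near the DMSO range for these genes. TRIM49 had 10, 10 and 0 counts in the DMSO libraries and 189, 208 and 166 counts in the 5 µM libraries, and PRAMEF36P 0, 0 and 0 counts in the DMSO libraries and 120, 262 and 224 counts in the 5 µM libraries, at least 75.8-fold higher with 3 counts per DMSO library as the limit, a call that DESeq2 did not make.

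A list of 68 such genes was drawn up after these values were seen, so its counts describe and support nothing. Of 29 tested, 28 rose and none fell, with a median log2 fold change of 5.94, or 3.73 with the 22 members near 0 in DMSO set at their limit. Members low in every group did not pass the filter on low counts. Those near 0 in DMSO could be tested only because another group was higher, so the filter itself favoured rises. ZSCAN4, a marker of the cleavage-stage state, had 1, 0 and 1 counts in the DMSO libraries and 43, 34 and 29 counts in the 5 µM libraries, a ratio of 60.1 (16.2 to 503). MBD3L2, a DUX4 target that relieves silencing, had 0, 0 and 0 counts in the DMSO libraries and 77, 71 and 67 counts in the 5 µM libraries, at least 26.9-fold higher. The summed counts of the list were 450, 382 and 413 in DMSO, 1175, 1141 and 1071 at 1 µM and 2723, 2797 and 2483 at 5 µM. DUX4 itself had 0, 0 and 2 counts in DMSO and 2, 0 and 7 at 5 µM, with at most 8 in any library of the time course. These families consist of near-identical copies, so that the split of reads between their members is uncertain, and TRIM49D2 is one whose level at 5 µM was below that at 1 µM (dose log2 fold change -0.60, adjusted p = 1.78e-09).

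**Figure D4:**
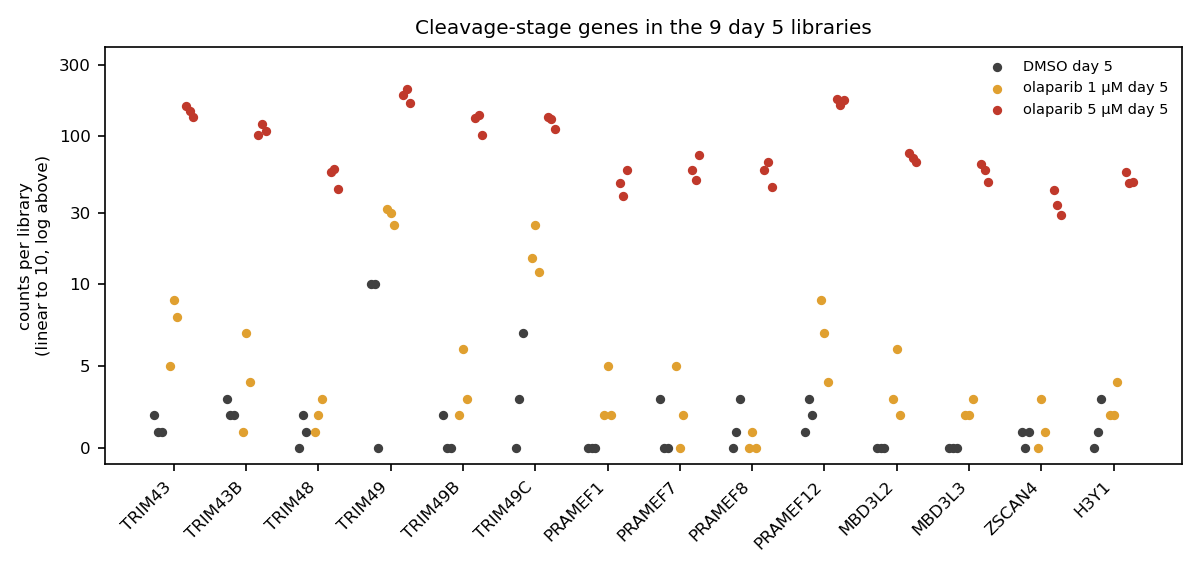
Counts of 14 cleavage-stage genes in each of the 9 day 5 libraries, on an axis that is linear to 10 and logarithmic above. The 5 µM libraries (red) hold 29 to 208 counts of each gene shown, DMSO (dark) 0 to 10 and 1 µM (yellow) 0 to 32.

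Among the 15 largest falls, PLK1, KIF14, CENPA, CDC20 and KIF20A are mitosis genes described above. NMU, a neuropeptide gene, had 6.1, 6.28 and 6 CPM in the DMSO libraries and 0.476, 0.421 and 0.197 CPM in the 5 µM libraries, and CA8, a carbonic anhydrase relative, had 7.25, 8.18 and 7.1 CPM in the DMSO libraries and 0.476, 0.674 and 0.394 CPM in the 5 µM libraries. Both fell without overlap (log2 fold change -4.06 ± 0.16 SE, adjusted p = 5.45e-23 for NMU, and log2 fold change -3.86 ± 0.13 SE, adjusted p = 1.29e-24 for CA8). MYB, a proto-oncogene transcription factor, fell 9.52-fold (log2 fold change -3.25 ± 0.092 SE, adjusted p = 1.82e-27), PIF1, a DNA helicase, 9.22-fold, and NIBAN1, a stress-related gene, 9.42-fold. FAM72B and FAM72D, which fell 10.4-fold and 9.88-fold, are near-identical copies, and ASDURF shares its transcript with another gene, so their counts are uncertain.

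The largest falls in size were of RN7SL2 and RN7SL1, copies of the RNA of the signal recognition particle. RN7SL2 had 484, 831 and 536 CPM in the DMSO libraries and 11.7, 33.5 and 11.3 CPM in the 5 µM libraries. RN7SL1 had 257, 408 and 262 CPM in the DMSO libraries and 12.6, 26.9 and 10.7 CPM in the 5 µM libraries. Their groups did not overlap at day 5 (log2 fold change -5.03 ± 1.4 SE, adjusted p = 0.00726 for RN7SL2), but the 3 libraries of olaparib 5 µM at day 1 ranged from 8.44 to 733 CPM of RN7SL2. These RNAs lack a poly(A) tail and the libraries were made by mRNA capture, and the part of library preparation in the result was not tested.

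The step from 1 to 5 µM at day 5 was tested as a contrast of these 2 groups within the fit of all 18 time course libraries. It called 9909 genes (53.6%), 4914 higher at 5 µM (26.6%) and 4995 lower (27%), with 498 and 737 past 2-fold. Scaled to the total count alone, the split was 3881 higher and 6146 lower. All 75 mitosis genes (median -2.16) and all 59 S phase genes (median -1.36) were lower at 5 than at 1 µM. PLK1 fell by a further 2.68 on the log2 scale, KIF20A by 2.58, CDC20 by 2.63, PTTG1 by 2.60 and NMU by 3.44, the steepest of those named. CDKN1A was at 224, 228 and 227 CPM in the 1 µM libraries and rose by 1.69 from there (adjusted p = 3.05e-36). Of 54 p53 targets 48 were higher at 5 µM and 3 lower.

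Among genes with a mean of at least 100 counts, the largest positive steps were cleavage-stage genes, PRAMEF36P, TRIM49B, TRIM43B, PRAMEF12 and TRIM43, where TRIM43 had 5, 9 and 8 counts at 1 µM against 160, 147 and 135 at 5 µM. In the androgen list 50 genes were higher and 41 lower at 5 µM. KLK3 had 1486, 1498 and 1499 CPM at 1 µM, below the 5 µM range (log2 fold change 0.33 ± 0.021 SE, adjusted p = 2.73e-12), and TMPRSS2 had 234, 234 and 235 (log2 fold change 0.71 ± 0.025 SE, adjusted p = 1.05e-23). FKBP5 had 969, 968 and 969.6 CPM at 1 µM (log2 fold change -0.02 ± 0.018 SE, adjusted p = 0.31), so no difference between the doses was detected for it.

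Against DMSO, the 1 µM effects at day 5 use the same 3 control libraries as those of 5 µM, so values are set side by side only. Median log2 fold changes at 1 and 5 µM were -0.57 and -2.73 for mitosis, -0.45 and -1.77 for S phase, -0.41 and -1.38 for recombination, 0.61 and 1.20 for p53 targets, and 0.21 and 0.22 for the androgen response. The ATF4 list was at -0.63 and -1.01 and the lysosome list at 0.25 and 0.54. BRCA1 was at -0.51 and -2.27, BRCA2 at -0.57 and -2.54, and CDKN1A at 2.46 and 4.15.

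The effect of 5 µM at day 5 differed from that at day 1 in 10156 genes (54.9%), tested as the difference of the effects, each against DMSO of its own day. The effect was higher at day 5 in 5035 genes (27.2%) and lower in 5121 (27.7%), or in 3450 and 6926 when scaled to the total count alone, which moved the median of all genes from -0.02 to -0.15. At day 1, 8333 genes were called (45%), 3997 as higher (21.6%) and 4336 as lower (23.4%), with 581 and 78 past 2-fold. Without the third library of 5 µM at day 1, 18873 genes passed the filter and 7852 were called, 3720 higher and 4132 lower. Of genes called at day 5, 6804 (53.9%) were also called at day 1, against 45% of all genes. They were 81.7% of the day 1 calls, against 68.2% of all genes called at day 5. Of the 6804, 5412 had the same and 1392 the opposite direction. Of the latter 630 were higher at day 1 and lower at day 5, and 762 the reverse. Without that library 6473 were called on both days, 5215 in the same and 1258 in the opposite direction (559 and 699). The effect then differed between the days in 9800 genes, higher at day 5 in 4870 and lower in 4930.

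Most p53 targets were already higher at day 1. Of 54 targets 53 were higher then, against 21.6% of all genes, with a median of 1.40 against 1.20 at day 5, and the effect was higher at day 5 in 17 and lower in 21, or 18 and 22 without the third library of 5 µM at day 1. CDKN1A had a log2 effect of 3.71 at day 1, 0.44 below that of day 5 (adjusted p = 1.12e-13), and GDF15 one of 3.71, above that of day 5 (difference -0.42, adjusted p = 2.88e-06). FAS was at 3.35 (adjusted p of the difference = 0.59). PMAIP1 rose at day 1 (0.62) and fell at day 5 (-1.29), and the difference was called (adjusted p = 1.02e-13).

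The mitosis genes were already lower at day 1 and had a larger effect at day 5. At day 1, 67 of 75 were lower and 2 higher, against 23.4% and 21.6% of all genes (66 and 1 without the third library of 5 µM), with a median of -0.62, and all 75 had a lower effect at day 5. PLK1 was at -1.93 on day 1 and -3.35 on day 5, and SKA1 at -0.29 and -3.12. S phase genes were balanced at day 1, with 17 of 59 higher, 17 lower and a median of -0.01, near the shares over all genes (15 and 15 without that library), and all 59 had a lower effect at day 5. CDC45 was at 0.02 on day 1 (adjusted p = 0.6), RRM2 at 0.03 (adjusted p = 0.297) and MCM10 at -0.14 (adjusted p = 0.000121). Recombination genes moved both ways at day 1, with 13 of 45 higher and 16 lower (median 0.01, and the same counts without that library), with BRCA1 at 0.19 on day 1 and -2.27 on day 5, and 37 of 45 with a lower effect at day 5. Leaving out the third library of 5 µM at day 1 gave 75, 59 and 37 such genes again.

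The androgen response differed between the days. At day 1, 55 of 106 were lower, against 23.4% of all genes, and 23 higher, a share near the 21.6% of all genes (median -0.09), or 56 and 22 without the third library of 5 µM. The effect was higher at day 5 in 66 and lower in 24, or 67 and 23 without that library, and 22 genes were lower at day 1 and higher at day 5. KLK3 fell at day 1 (log2 fold change -0.29 ± 0.022 SE, adjusted p = 6.93e-11) and rose at day 5, with a difference of 0.88 (adjusted p = 1.04e-17). FKBP5 did the same (-0.10 and 0.46), as did GATA2 (-0.34 and 0.24). TMPRSS2 was higher on both days (0.19 and 1.71), and KLK2 did not pass at day 1 (-0.05, adjusted p = 0.157).

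The ATF4 list was also balanced at day 1 (9 higher, 9 lower, median -0.01, or 9 and 7 without the third library of 5 µM) and had a lower effect at day 5 in 23 of 24 genes with or without it. MYC and ribosome biogenesis genes were already low, with all 30 lower at day 1 (median -0.35) and 13 higher against 8 lower in the difference, or 30, 12 and 6 without that library. The cleavage-stage genes had summed counts of 484, 480 and 473 in the 5 µM libraries at day 1, far below those at day 5. Among genes with a mean of at least 100 counts, the largest positive differences between days were TRIM43 (6.44), PRAMEF12 (6.37) and TRIM49B (6.10). APOBEC3H and APOBEC3C were already up at day 1 (3.90 and 3.73), and their differences were not called (adjusted p = 0.117 and 0.0914). The largest negative differences among such genes were RN7SL2 and RN7SL1, which were lost without the third library of 5 µM at day 1 (adjusted p = 0.0805 and 0.0932), followed by CA8 (-3.91) and NIBAN1 (-3.28).

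**Figure D5:**
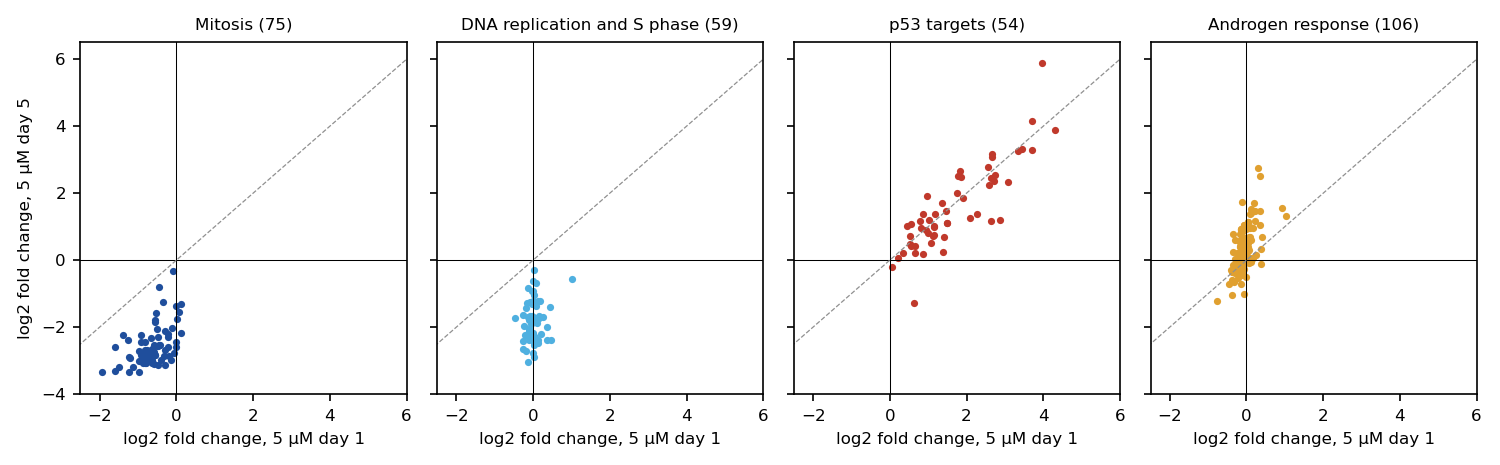
Log2 fold change of olaparib 5 µM against DMSO at day 5 (vertical) and at day 1 (horizontal) for the genes of 4 lists, with the number tested; on the dashed line both days are equal. Mitosis and S phase genes lie below the line, p53 targets lie along it, and androgen response genes are spread upward from a narrow range near 0 at day 1.

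A second experiment held olaparib at 1 µM for 5 days with its own DMSO libraries. It called 6638 of 18625 genes (35.6%), 3655 higher (19.6%) and 2983 lower (16%), or 2885 and 3829 when scaled to the total count alone. Over the 17960 genes tested in both experiments, 5987 were called in both, 48.1% of those called at 5 µM and 90.7% of those called in the second experiment, and 5749 of them (96%) had the same direction. The 48.1% stands against 35.6% of all genes tested called in the second experiment, and the 90.7% against 68.2% called at 5 µM. The doses differ, so sizes are only set side by side. Medians there were -0.47 for mitosis, -0.31 for S phase, -0.31 for recombination, 0.54 for p53 targets and 0.11 for the androgen response. CDKN1A was at 2.18, PLK1 at -0.41, BRCA1 at -0.34, KLK3 at 0.17 and TMPRSS2 at 0.73, and ATM again did not pass (-0.12, adjusted p = 0.0957). All 75 mitosis genes were lower and 58 androgen response genes were higher and 18 lower there.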

How the data were processed

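RNA was measured by poly(A)-selected, strand-marking RNA-seq (KAPA Stranded mRNA-Seq, NovaSeq X Plus). Per the labels, reads were processed with Trim Galore, STAR and Salmon on GRCh38, and the authors deposited 1 table of raw gene counts for 39 libraries, used here as counts. Salmon estimates counts, and how they became whole numbers is not given in the sources used here. Genes at 0 in all libraries numbered 22472 of 63187, and 20849 had no symbol.

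The 18 time course libraries were fitted together with edgeR 4.0.16 in R 4.3.3 (filterByExpr by group, TMM, quasi-likelihood test, limma 3.58.1), and the second experiment was fitted separately. Calls used a Benjamini-Hochberg adjusted p under 0.05 over all genes tested. Each SE was worked back from the test, as the absolute log2 fold change divided by the square root of the quasi-likelihood F statistic. It is therefore not a standard error given by the fit. The method was also run on simulated data in which few genes changed, with rises and falls balanced. Such data cannot test the scaling under a change as broad as the one here. Named genes were the 15 largest rises and 15 largest falls among genes with groups apart whose higher group averaged 100 counts or more, up to 3 members of each list role, genes the study names, and the 5 most positive and most negative dose and day differences. Members and lists (31 lists and 2 added after their values were seen) were chosen with earlier results of these data known. Ratios to groups at 0 used 3 counts per library as the limit, and 95% counting intervals are exact; both cover counting error only. Principal components used 500 genes and log2 CPM with a prior count of 2. Gene coordinates come from the annotation supplied with the reference, which may differ in release from that of the authors. Alternatives were DESeq2 1.42.0, other scalings and filters, a replicate block, fits on the groups compared alone and each library left out. The replicate numbers did not pair the libraries. Some items are not reported here.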

Additional observations from a re-analysis of the deposited data

Results flagged for a closer look

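The effect of olaparib 5 µM differed between days, by a test of the difference itself, in 10156 genes. In 1392 genes the effects at day 1 and day 5 were both called and opposite, or 1258 without the third library of olaparib 5 µM at day 1. Among gene lists, all 75 mitosis genes and all 59 S phase genes had a lower effect at day 5, as did 23 of 24 ATF4 response genes, and 66 of 106 androgen response genes had a higher one. Of the 236 genes in the table of named genes, 209 differed between the days, against 54.9% of all genes tested; the table was chosen in part for large changes at day 5 and large differences between days, so this count describes the choice.

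Among genes with a mean of at least 100 counts, the largest positive differences (day 5 minus day 1, log2) were TRIM43 at 6.44, PRAMEF12 at 6.37, TRIM49B at 6.10, TRIM49C at 4.56 and TRIM43B at 4.475, all cleavage-stage genes with few counts in DMSO, so that these fitted values depend on the prior count. The largest negative differences were DMBX1 at -3.25, NIBAN1 at -3.28, CA8 at -3.91, RN7SL1 at -6.88 and RN7SL2 at -7.94. Without the third library of olaparib 5 µM at day 1, which stood apart from its replicates, RN7SL1 was at -2.68 (edgeR adjusted p = 0.0932) and RN7SL2 at -3.51 (edgeR adjusted p = 0.0805), so both calls were lost, while the other 8 kept theirs.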

How the results depend on the processing

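All 4 counts of calls stayed within 1.5 times of the reported ones under other scalings, filters, DESeq2 and fits on the compared groups alone. Asking also for a 2-fold change left 3038 of 12627 genes for 5 µM against DMSO at day 5, 1235 of 9909 for the dose, 2243 of 10156 for the day and 502 of 6638 for the second experiment. DESeq2 called 12005 genes for the first of these, an adjusted p under 0.01 11231 and a filter of 1 CPM in 3 libraries 11463. Leaving out 1 library at a time gave 12113 to 12205, 9208 to 9290, 9739 to 9895 and 5647 to 6330 calls.

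The labels share replicate numbers across groups. The deviations of same-numbered day 5 libraries of the compared groups correlated at -0.058, -0.016 and -0.313, so the numbers were not taken as pairs. With the replicate block the counts were 12541, 9801, 10013 and 6534.

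Named genes were counted under a setting only where they were tested and had an adjusted p, so genes that dropped out there are not counted. Of 1870 values of named genes under other settings 1866 kept their direction and call, and 4 lost the call: ONECUT2 when scaled to the total count, and PRAMEF36P, MBD3L2B and PRAMEF26 under DESeq2. Of 1416 values with 1 library left out, 1414 kept theirs, and APOBEC3F passed in the other 2. No named gene reversed. Of 496 and 372 list counts, 483 and 365 stayed within 1.5 times; recombination genes called higher went from 1 to 2 or 3 under 3 settings and without 3 of the libraries; the neuroendocrine, fibroblast and immune marker lists, of 1 to 3 tested genes, moved too. Of 10 motif shares over all genes that fell or rose, 8 left their own 95% Wilson interval and 4 changed by over 1.5 times when a 2-fold change was also asked, such as E2F among genes that fell, from 7.59% to 13.7%, and CHR, from 12.1% to 20.7%; shares over lists do not depend on that setting. The causes were not tested. Genes under about 100 counts, such as the cleavage-stage genes in DMSO, carry wide counting intervals.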
